A study of Mus musculus with 24 samples.

Results

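The 10 osteoclast genes Acp5, Ctsk, Mmp9, Mmp13, Calcr, Ocstamp, Dcstamp, Oscar, Tnfrsf11a and Nfatc1 were taken by symbol from the 41388 genes of the count table, and all 10 were found. Their transcripts were read in macrophages sorted by flow cytometry from the dura mater, the outer membrane of the brain, and from the diaphragm, the breathing muscle below the lungs. Every mouse was labelled wild type C57BL/6, 17 weeks old and at steady state, although the series' design text concerns reconstituting RAG-1 deficient animals with T cells. No transgene, Cre driver or treatment is named in the labels of either tissue. The labels split the macrophages of each tissue into subsets C1, C2 and C3, with 3 samples each in dura and 5 each in diaphragm. The column names of the table carry no subset, only the tissue, a number and, for dura, a mark P6, P5 or P4, and no source used here says what the marks mean. Dura therefore gave 9 libraries, numbers 1, 3 and 4 of each mark, and diaphragm gave 7 libraries, shown as the number sets 1 and 7, 2 and 8, and 3, 6 and 9. The diaphragm sets are tied to no label or header and were compared by no test. Nothing in the labels says that libraries came from separate animals, so p-values here measure only the spread between these libraries, which may be technical.

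Osteoclasts are giant cells that dissolve bone, formed when precursors of the monocyte and macrophage lineage fuse. The cytokine RANKL binds its receptor RANK on the precursor, and the signal, together with input from immune receptors that use ITAM adaptors, switches on the transcription factor NFATc1. NFATc1 with partners such as AP-1, MITF and PU.1 then drives the fusion proteins, the acid pump and the enzymes of resorption. The dura lines the inner face of the skull and is the periosteum there, whereas the diaphragm is soft tissue. Macrophages outside bone also express some of these genes.

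All coordinates are on GRCm38. By role, the receptor gene Tnfrsf11a lies on the plus strand of chromosome 1 from 105780718 to 105847981. The enzyme genes are Acp5 on chromosome 9, minus strand, from 22126727 to 22135711, Ctsk on chromosome 3, plus strand, from 95499256 to 95509362, Mmp9 on chromosome 2, plus strand, from 164940780 to 164955850, and Mmp13 on chromosome 9, plus strand, from 7272514 to 7283331. The fusion genes are Ocstamp on chromosome 2, minus strand, from 165393760 to 165400405, and Dcstamp on chromosome 15, plus strand, from 39745930 to 39760938. Calcr lies on chromosome 6, minus strand, from 3685680 to 3764714, and Oscar on chromosome 7, minus strand, from 3609813 to 3616157. All 10 are protein-coding. No other annotated gene overlaps 9 of them. Calcr holds the microRNA genes Mir653 and Mir489, both at 0 counts in every library.

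RefSeq promoters of the same build (GRCm38.p6) were matched for 6 of the 10 genes. Shown here are the 250 bases before the start of Acp5, Ctsk and Mmp13, the genes that were higher in dural libraries marked P6 than in those marked P4 and have an entry. For Acp5, which has 3 starts, the most downstream start is given (chr9:22130599-22130848, minus strand), the Ctsk stretch is chr3:95498960-95499209 and the Mmp13 stretch chr9:7272264-7272513, both on the plus strand. Capitals mark matches on either strand to NFAT (TGGAAA), AP-1 (TGANTCA), MITF E-box (CATGTG) and PU.1 (GAGGAA) letters, and no 2 matches overlap.
Acp5: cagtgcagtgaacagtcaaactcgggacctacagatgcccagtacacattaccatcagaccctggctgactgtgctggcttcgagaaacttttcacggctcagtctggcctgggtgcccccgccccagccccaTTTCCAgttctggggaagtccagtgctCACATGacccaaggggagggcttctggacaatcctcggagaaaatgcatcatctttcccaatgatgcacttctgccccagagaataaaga
Ctsk: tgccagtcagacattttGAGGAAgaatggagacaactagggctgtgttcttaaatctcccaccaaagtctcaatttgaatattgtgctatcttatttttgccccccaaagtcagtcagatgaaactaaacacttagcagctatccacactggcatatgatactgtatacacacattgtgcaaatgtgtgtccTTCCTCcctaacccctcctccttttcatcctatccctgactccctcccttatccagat
Mmp13: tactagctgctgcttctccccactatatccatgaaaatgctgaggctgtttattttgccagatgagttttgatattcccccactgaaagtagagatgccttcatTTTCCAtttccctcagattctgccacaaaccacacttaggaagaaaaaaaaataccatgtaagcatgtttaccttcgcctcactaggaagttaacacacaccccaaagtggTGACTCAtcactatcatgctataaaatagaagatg
The Acp5 stretch holds an NFAT match starting 117 bases and an MITF E-box match 90 bases upstream of the start. The windows before Acp5 starts 1 and 2, not shown, held no match. Among the other matched members, the windows of Calcr and Tnfrsf11a held no match and that of Oscar held 4. The Ctsk stretch holds PU.1 matches at 233 and 58 bases, and the Mmp13 stretch an NFAT match at 146 and an AP-1 match at 35 bases. Over all 32851 promoters in the table, windows of this length hold the NFAT letters in 18.6%, AP-1 in 6.75%, the MITF E-box in 12.3% and PU.1 in 23.3%. These matches describe the letters only.

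Libraries held between 10457920 and 30132295 counts, with diaphragm columns of 1 number summed. Levels are CPM, counts per 1000000 counts of the library after TMM scaling, and 3 counts in a library correspond to between 0.110 and 0.305 CPM. Summed macrophage markers were close in dura and diaphragm, at 34661 ± 1956 CPM (SD, n = 9) and 32651 ± 4126 CPM (SD, n = 7), with all 12 detected in every library. Single markers differed under these sums. Of the 12, 5 were higher in dura (Adgre1, Fcgr1, Mrc1, Cx3cr1 and Csf1r) and none lower, beside 11.1% and 15.1% of all genes. In P6 over P4, 4 were higher and 4 lower, beside 16.1% and 17.2% of all genes. Markers of other cell types also differed between libraries. The 12 fibroblast markers summed to 277 to 438 CPM in P6, 677 to 887 in P5 and 2411 to 4418 in P4, against 16788 and 8239 CPM in diaphragm libraries 1 and 7. The remaining 5 libraries of diaphragm had 329.9 to 897 CPM of them. The 12 osteoblast and osteocyte markers summed to 30.5 to 35.1 CPM in P6, 36.2 to 44.6 in P5 and 95.5 to 216 in P4, against 5.005 to 19.8 in diaphragm. Conventional dendritic cell markers, of which 11 were listed, summed to 325 to 395 CPM in P6, 738 to 833 in P5 and 785 to 864 in P4. Most of the sum in P5 and P4 was Clec10a, with means of 663 and 689 CPM, against 177 in P6. Of the 10 tested, 6 were nevertheless higher in P6 than in P4 (Flt3, Xcr1, Clec9a, Ccr7, Dpp4 and Batf3). Another 3 were lower (Clec10a, Zbtb46 and Cd209a), and the median log2 fold change of the 10 was 2.78. The part of dendritic cells in the differences between P6 and the other marks was not tested. Classical monocyte markers summed to 2191 to 2413 CPM in P6, 2335 to 2921 in P5 and 2832 to 3131 in P4, with 2 of 9 tested higher and 1 lower in P6 than in P4. The lower was F13a1, the highest marker in P5 and P4, with a mean of 698 CPM in P6 and 2713 in P4. Ccr2, 1 of the 2 higher and the highest marker in P6, had means of 1536 CPM in P6 and 61.5 in P4. The sum thus hides opposite changes. Skeletal muscle markers summed to 4.12 to 14.96 CPM in dura and 146 to 314 CPM in diaphragm. The defining osteoclast gene Calcr was at 0 in 13 of the 16 libraries. In sorted bulk RNA, fewer cells of a type and less RNA per cell cannot be told apart.

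Per length of transcript and averaged over all libraries of a tissue, Mmp9 had the highest level of the 10 genes in both, at 138 ± 66.5 CPM per kb in dura and 114 ± 106 CPM per kb in diaphragm (SD, n = 9 and 7). In dura it was followed by Acp5 at 46.0 ± 35.1, Ctsk at 36.8 ± 31.4, Tnfrsf11a at 17.6 ± 2.33, Nfatc1 at 14.7 ± 4.24 and Mmp13 at 13.8 ± 5.35 CPM per kb. In diaphragm Acp5 at 77.6 ± 65.4 and Mmp13 at 26.4 ± 12.3 came before Tnfrsf11a at 12.4 ± 2.30, Nfatc1 at 12.3 ± 1.11 and Ctsk at 9.32 ± 10.2 CPM per kb. Most neighbours in each order differed by less than the larger of their SDs. The exceptions were the steps from Mmp9 to Acp5 and from Mmp13 to Dcstamp in dura and from Mmp13 to Tnfrsf11a in diaphragm. Dcstamp stood at 0.975 ± 1.14 in dura and 2.92 ± 2.85 CPM per kb in diaphragm, and Ocstamp at 0.582 ± 0.704 in dura and 1.72 ± 1.89 CPM per kb in diaphragm. Calcr and Oscar were last in both. The order of the means did not hold in every library. In the P6 libraries Acp5, at 84.6, 108 and 81.9 CPM per kb, exceeded Mmp9, at 57.7, 58.3 and 63.6 CPM per kb. In diaphragm libraries 9 and 6 Acp5, at 52.4 and 38.6 CPM per kb, also exceeded Mmp9, at 39.2 and 21.4 CPM per kb, and in library 3 Mmp13 was the highest at 36.5 CPM per kb.

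**Figure D1:**
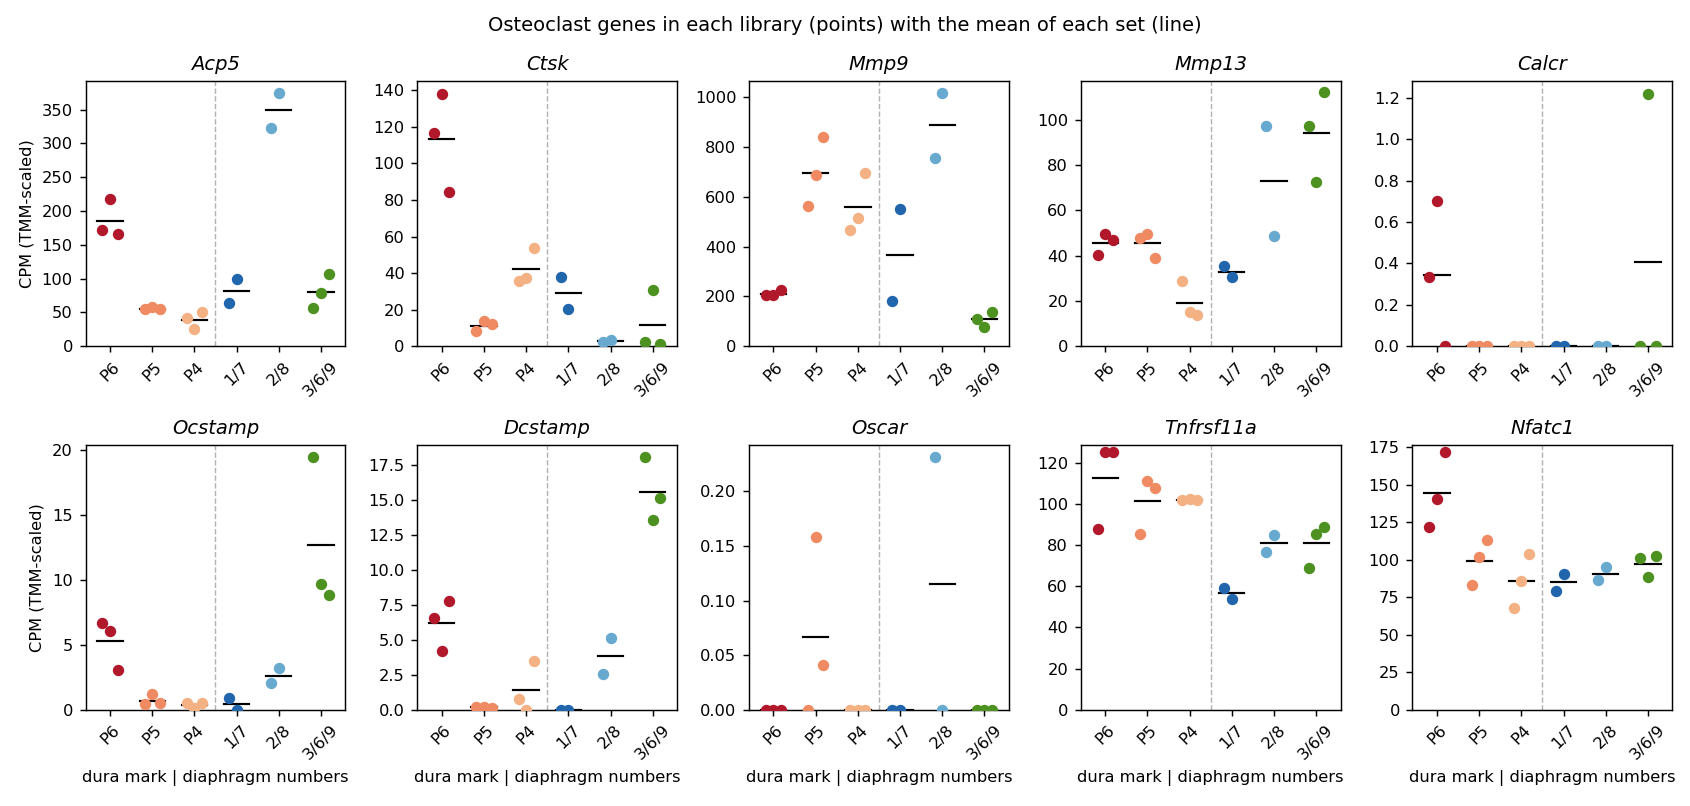
Level of each of the 10 osteoclast genes in every library, in CPM (vertical axis, linear), by dural mark (P6, P5, P4) and diaphragm number set (1/7, 2/8, 3/6/9). Points are libraries and lines are means of a set; Ctsk in P6 (84.4 to 138 CPM) lies above every other library, and Ocstamp and Dcstamp are highest in diaphragm set 3/6/9.

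Between dura and diaphragm, edgeR's quasi-likelihood test called 1 member higher (Tnfrsf11a) and 1 lower (Mmp13) of the 8 that passed the low-count filter. Over all 13136 genes tested, 11.1% were called higher and 15.1% lower. The libraries of the tissues overlapped for all 8 members, whereas 2.54% of all genes lay above and 4.38% below without overlap. Their median log2 fold change was -0.25, beside -0.01 for all genes. Calcr and Oscar did not pass the filter in any comparison.

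Between P6 and P4, 5 of the 8 tested members were higher (Acp5, Ctsk, Mmp13, Ocstamp and Nfatc1) and Mmp9 was lower. Over all 13239 genes, 16.1% were called higher and 17.2% lower. All libraries of P6 lay above those of P4 for 6 members and below for 1, beside 22.8% and 23.9% of all genes. Between P6 and P5, 4 members were higher (Acp5, Ctsk, Ocstamp and Dcstamp) and Mmp9 was lower, beside 8.54% of all genes higher and 9.05% lower. Without overlap 5 members lay above and 1 below, beside 18.3% and 17.7% of all genes. Between P5 and P4, Mmp13 was higher and Ctsk lower, beside 3.3% of all genes higher and 4.34% lower. Without overlap 2 members lay above and 1 below, beside 11.3% and 14.6% of all genes. The median log2 fold change of the 8 was 1.34 for P6 over P4, 1.14 for P6 over P5 and 0.27 for P5 over P4, beside medians of all genes between -0.01 and 0.00. The 3 dural comparisons share libraries. When the diaphragm libraries were added to the dural fit as a further group, so that all shared 1 estimate of the spread, the quasi-likelihood test called 1 member between P6 and P4, Nfatc1. The lowest adjusted p of a member in that fit was 0.155 for P6 over P5 and 0.931 for P5 over P4.

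**Figure D2:**
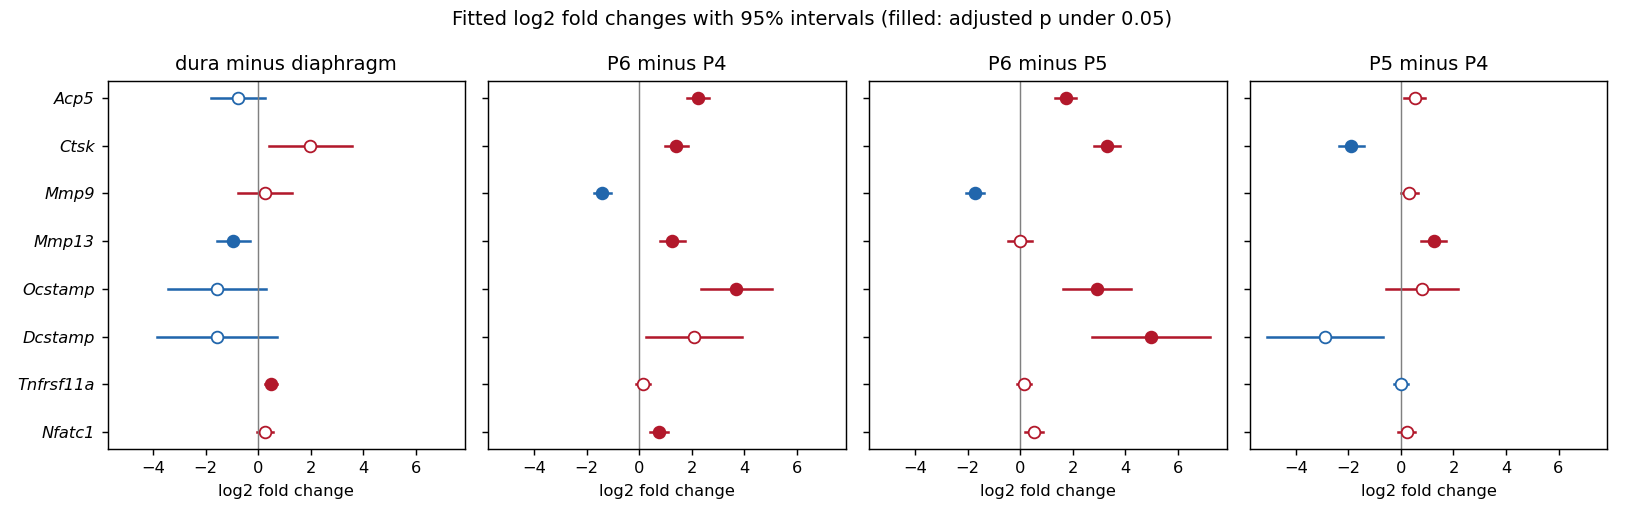
Log2 fold changes (horizontal axis) of the 8 tested osteoclast genes in 4 comparisons, with bars for 95% intervals from the SE and filled points for an adjusted p under 0.05. In P6 over P4 the point for Mmp9 is at -1.40, left of 0, and the other 7 lie to the right.

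The receptor and the transcription factor at the top of the pathway were present in every library. Tnfrsf11a, which encodes RANK, had 87.7, 125 and 125 CPM in P6, 85.5, 111 and 108 CPM in P5 and 102, 102 and 102 CPM in P4, against 59.3 and 53.7 CPM in diaphragm libraries 1 and 7, 76.7 and 85.0 CPM in libraries 2 and 8, and 69.0, 88.8 and 85.5 CPM in libraries 3, 9 and 6. The dural libraries were mostly higher, but the highest diaphragm library exceeded the 2 lowest dural ones. Tnfrsf11a averaged 105 ± 13.95 CPM in dura and 74.0 ± 13.7 CPM in diaphragm (SD, n = 9 and 7), a log2 fold change of 0.51 ± 0.12 (SE, adjusted p = 0.00382). The difference was 0.37 (adjusted p = 0.0136) without diaphragm libraries 1 and 7. Summing the dural libraries of 1 number left 0.51 but an adjusted p of 0.0805. Between marks the log2 fold changes of Tnfrsf11a were 0.15, 0.16 and -0.00 for P6 over P4, P6 over P5 and P5 over P4 (lowest adjusted p = 0.444), and the sign of the last turned with the settings.

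Nfatc1, which encodes the master transcription factor of osteoclast formation, lies on the minus strand of chromosome 18 from 80606205 to 80713071 (GRCm38). It had 122, 140.5 and 172 CPM in P6, 83.5, 102 and 113 CPM in P5 and 68.3, 86.0 and 104 CPM in P4. The P6 libraries lay above all the others. Nfatc1 was higher in P6 than in P4 by a log2 fold change of 0.75 ± 0.17 (SE, adjusted p = 0.00546), and this call stood in all 16 alternatives tried. P6 exceeded P5 by 0.54 ± 0.17 (SE) with an adjusted p of 0.0517. The threshold was passed in 9 of 16 alternatives, among them the fits without dural library 1 or 4 of P4 and without library 1 of P6. In diaphragm Nfatc1 ranged only from 79.2 to 102 CPM with a median of 90.9, against 68.3 to 172 CPM with a median of 104 in dura. The tissue difference was 0.26 ± 0.15 (SE, adjusted p = 0.233).

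Among the enzymes of resorption, Acp5 and Ctsk were both highest in P6 within dura. In diaphragm Acp5 was highest in libraries 2 and 8, and Ctsk in library 1. Acp5, tartrate-resistant acid phosphatase, had 172, 218 and 166 CPM in P6, 54.6, 57.4 and 55.3 CPM in P5 and 41.2, 25.3 and 50.5 CPM in P4. In diaphragm it had 64.0 and 99.8 CPM in libraries 1 and 7, 323 and 375 CPM in libraries 2 and 8, and 56.5, 106 and 78.3 CPM in libraries 3, 9 and 6. Diaphragm libraries 2 and 8 thus exceeded every dural library, and all others lay below P6. Acp5 was higher in P6 than in P4 by a log2 fold change of 2.26 ± 0.21 (SE, adjusted p = 1.72e-05) and than in P5 by 1.74 ± 0.21 (SE, adjusted p = 0.000217). P5 lay above P4 in every library, but at 0.52 ± 0.21 the adjusted p was 0.196, and 0.0329 without library 4 of P4. Across tissues Acp5 averaged 93.4 ± 71.2 CPM in dura and 158 ± 133 CPM in diaphragm (SD, n = 9 and 7), with an adjusted p of 0.311. Leaving out the libraries marked P6 gave a log2 fold change of -1.71 (adjusted p = 0.0193).

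Ctsk, the cathepsin that digests bone collagen, had 117, 138 and 84.4 CPM in P6, 8.21, 13.5 and 12.2 CPM in P5 and 35.8, 37.1 and 53.9 CPM in P4. The 3 marks did not overlap, and P5 was the lowest of them. Ctsk was higher in P6 than in P5 by a log2 fold change of 3.31 ± 0.25 (SE, adjusted p = 4.2e-06) and than in P4 by 1.42 ± 0.22 (SE, adjusted p = 0.000519), and lower in P5 than in P4, at -1.89 ± 0.24 (SE, adjusted p = 0.000745). In diaphragm Ctsk had 37.8 and 20.5 CPM in libraries 1 and 7, 2.08 and 3.59 CPM in libraries 2 and 8, 2.47 and 1.42 CPM in libraries 3 and 9, and 30.9 CPM in library 6. Library 6 stood far above the others of its set. Dura exceeded diaphragm by 1.98 ± 0.81 (SE), with an adjusted p of 0.0819. Without diaphragm library 1 the difference was 2.49 (adjusted p = 0.0433), and without libraries 1 and 7 it was 2.85 (adjusted p = 0.0365).

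Mmp9, the gelatinase that osteoclasts and many other myeloid cells secrete, was the member called lower in P6. It had 204, 206 and 225 CPM in P6, 561, 689.5 and 839 CPM in P5 and 467, 514 and 696 CPM in P4. All P6 libraries lay below all other dural libraries. Mmp9 was lower in P6 than in P5, at a log2 fold change of -1.72 ± 0.17 (SE, adjusted p = 5.86e-05), and lower than in P4, at -1.40 ± 0.17 (SE, adjusted p = 0.000108). In diaphragm it had 184 and 553 CPM in libraries 1 and 7, 757 and 1018 CPM in libraries 2 and 8, and 109, 139 and 75.8 CPM in libraries 3, 9 and 6. Diaphragm libraries 2 and 8 were thus the highest of their tissue for both Mmp9 and Acp5, whereas in dura the mark with the highest Acp5 had the lowest Mmp9. The tissue difference of Mmp9 was 0.27 ± 0.53 (SE, adjusted p = 0.750), and its sign turned to -0.07 without the libraries marked P5. Neutrophils are a known source of Mmp9. The 12 neutrophil markers summed to 0.739 to 27.1 CPM in P6, 1.06 to 7.44 in P5 and 1.27 to 57.0 in P4, and to 0.454 to 13.9 in diaphragm.

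Mmp13, a collagenase of cartilage and bone, had 40.2, 49.8 and 47.1 CPM in P6, 47.9, 49.6 and 38.8 CPM in P5 and 29.0, 15.1 and 13.8 CPM in P4. P4 was the low mark, and P6 and P5 overlapped. Mmp13 was higher than in P4 both in P6, by a log2 fold change of 1.27 ± 0.24 (SE, adjusted p = 0.00163), and in P5, by 1.25 ± 0.24 (SE, adjusted p = 0.00836), while P6 over P5 was 0.02 ± 0.23 (SE, adjusted p = 0.978). In diaphragm it had 35.3 and 30.6 CPM in libraries 1 and 7, 97.2 and 48.8 CPM in libraries 2 and 8, and 97.5, 112 and 72.6 CPM in libraries 3, 9 and 6. Mmp13 averaged 36.8 ± 14.3 CPM in dura and 70.6 ± 32.9 CPM in diaphragm (SD, n = 9 and 7), lower in dura by a log2 fold change of -0.94 ± 0.33 (SE, adjusted p = 0.0426). That call lay close to the threshold and passed in 11 of 29 alternatives (adjusted p from 0.00773 to 0.191). It was lost without any 1 of dural libraries 1, 3 and 4 of P4, 4 of P5 and 1 of P6 and without any 1 of diaphragm libraries 2, 3, 9 and 6, at -0.79 to -0.96. Osteoblasts and hypertrophic chondrocytes also make Mmp13. The 10 chondrocyte markers summed to 6.65 to 23.9 CPM in P6, 18.4 to 27.0 in P5 and 46.6 to 88.6 in P4, against 2.95 to 70.7 in diaphragm, and the osteoblast sums are given above. The part of these cells in the Mmp13 levels was not tested.

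Ocstamp and Dcstamp, membrane proteins needed for osteoclast fusion, had low levels and were high in the same libraries. Ocstamp had 6.70, 6.08 and 3.09 CPM in P6, 0.423, 1.19 and 0.489 CPM in P5 and 0.520, 0.125 and 0.554 CPM in P4. P6 lay above all other dural libraries, and the total over its libraries was 204 counts, against 32 in P5 and 18 in P4. Ocstamp was higher in P6 than in P4 by a log2 fold change of 3.71 ± 0.70 (SE, adjusted p = 0.00107) and than in P5 by 2.92 ± 0.66 (SE, adjusted p = 0.0079). Diaphragm had 0.908 and 0 CPM in libraries 1 and 7, 2.03 and 3.18 CPM in libraries 2 and 8, and 19.4, 8.86 and 9.66 CPM in libraries 3, 9 and 6. Every library of the set 3, 6 and 9 exceeded every dural library, P6 included. The summed dendritic cell markers were also highest in that set, at 857 to 1101 CPM, against 322 to 551 CPM in the other diaphragm libraries, and their part was not tested.

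Dcstamp had 6.53, 4.21 and 7.80 CPM in P6, 0.169, 0.238 and 0.163 CPM in P5 and 0.781, 0 and 3.49 CPM in P4. P6 again lay above the rest of dura. Dcstamp was higher in P6 than in P5 by a log2 fold change of 4.99 ± 1.15 (SE, adjusted p = 0.0113), a fold that rests on 9 counts in all P5 libraries together, and the adjusted p was 0.0533 without library 3 of P5 and 0.0698 without library 4 of P5. P6 over P4 was 2.09 ± 0.94 with an adjusted p of 0.113, and it was 4.07 with an adjusted p of 0.0076 without library 4 of P4, the highest of that mark. In diaphragm Dcstamp had 0 CPM in both libraries 1 and 7, which allows up to 0.0610 CPM over that set, 2.59 and 5.14 CPM in libraries 2 and 8, and 18.02, 15.1 and 13.5 CPM in libraries 3, 9 and 6. The diaphragm sets were in the same order for both fusion genes. Between tissues the log2 fold changes were -1.57 ± 0.95 for Ocstamp and -1.58 ± 1.16 for Dcstamp (SE, adjusted p = 0.242 and 0.344). Without the libraries marked P6, Ocstamp was lower in dura at -3.50 (adjusted p = 0.0221).

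Calcr and Oscar were close to absent. Calcr, the calcitonin receptor of mature osteoclasts, had 4 and 9 counts in libraries 1 and 3 of P6 (0.335 and 0.701 CPM), 12 counts in diaphragm library 6 (1.22 CPM) and 0 counts in the other 13 libraries. A count of 0 over all P5 libraries allows up to 0.0612 CPM, and over all P4 libraries up to 0.0658 CPM. Oscar, an ITAM-associated receptor for collagen, had 2 and 1 counts in libraries 3 and 4 of P5, 5 counts in diaphragm library 2 and 0 elsewhere. The 0 counts in P6 allow up to 0.0756 CPM. These limits and all counts of this size cover counting error only, since reads were not tied to single molecules by identifiers.

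The spread of Ctsk was set beside fibroblast markers, because fibroblasts also express cathepsin K. In dura the P6 libraries had the highest Ctsk and the lowest summed fibroblast markers, and P4 had more Ctsk than P5 and the highest fibroblast sum. In diaphragm, libraries 1 and 7 had the highest fibroblast sums, and their Ctsk exceeded that of libraries 2, 8, 3 and 9. Library 6 had 30.9 CPM of Ctsk at a fibroblast sum of 329.9 CPM, the lowest of its tissue. The part of fibroblast RNA in the Ctsk of P4 and of diaphragm libraries 1 and 7 was not tested. Library 6 also held 26 of the 33 diaphragm counts of Slc9b2, a sodium-proton exchanger of osteoclasts (2.64 CPM, against 0 in libraries 3 and 9), and it had 7.93 CPM of Atp6v0d2 against 2.47 and 2.24 in libraries 3 and 9. Its Acp5 and Ocstamp lay between those of libraries 3 and 9, and its Dcstamp lay below both.

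**Figure D3:**
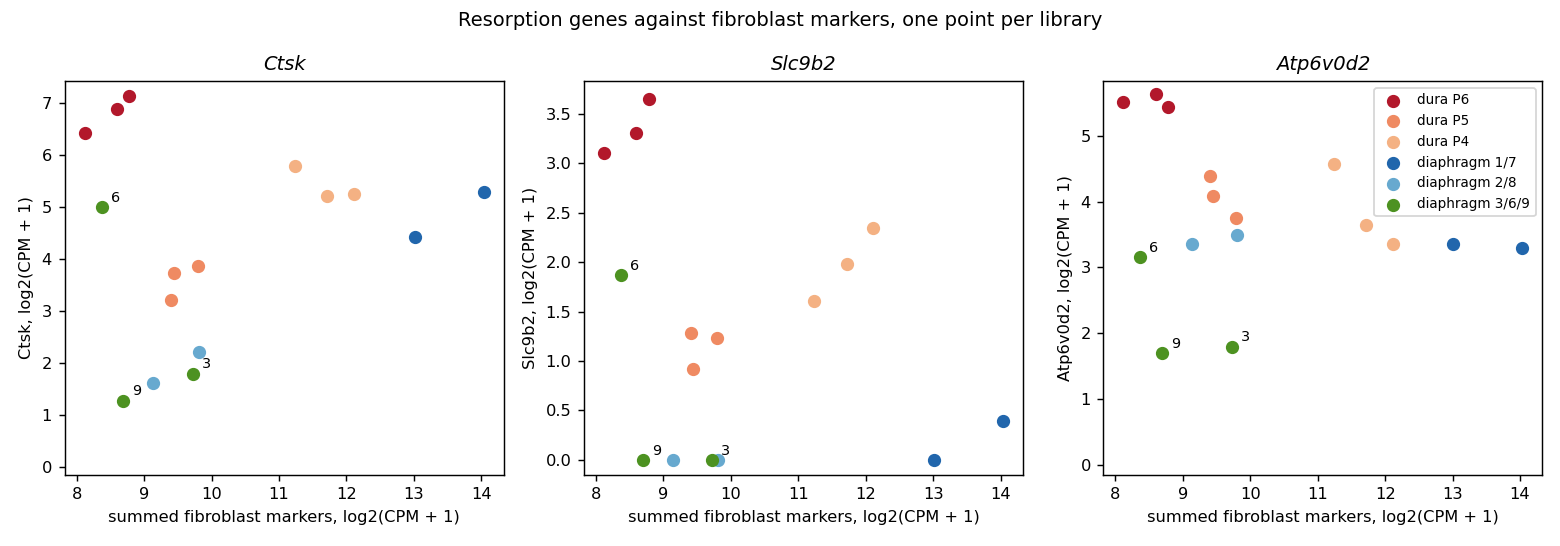
Ctsk, Slc9b2 and Atp6v0d2 (vertical axes, log2 of CPM + 1) against summed fibroblast markers (horizontal axis, log2 of CPM + 1), with 1 point per library and the numbers 3, 6 and 9 written beside their points. Dural P6 libraries sit at the top left of each panel, and diaphragm library 6 stands above libraries 3 and 9 in all 3 panels.

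Beyond the 10 genes, the acid-secreting machinery of the osteoclast was counted from a list of 10 genes, all tested. Between tissues 3 were higher in dura and none lower, beside 11.1% and 15.1% of all genes. The list median log2 fold change was 0.11, beside -0.01 for all genes. Atp6v0d2, a subunit of the proton pump, had 48.6, 42.4 and 44.6 CPM in P6, 19.97, 12.51 and 15.98 CPM in P5 and 11.5, 9.20 and 22.9 CPM in P4, against 2.24 to 10.2 CPM in diaphragm. It was higher in dura by 1.82 ± 0.44 (SE, adjusted p = 0.00557), and higher in P6 than in P4 by 1.63 ± 0.30 (SE, adjusted p = 0.0013). Slc9b2 was higher in dura by 3.61 ± 1.22 (SE, adjusted p = 0.0371, passed in 13 of 29 alternatives). Without diaphragm library 6 the difference was 6.29 (adjusted p = 0.000699), and without any 1 other library it was 3.28 to 3.75 (adjusted p from 0.0402 to 0.0629). Slc9b2 was also higher in P6 than in P5 by 2.95 ± 0.39 (SE, adjusted p = 0.000159). Car2, the carbonic anhydrase that supplies protons, was higher in dura by 2.996 ± 0.82 (SE, adjusted p = 0.0122), with 1.27 to 20.6 CPM there and 0 to 3.15 CPM in diaphragm. Without diaphragm library 6, the highest of its tissue, the difference was 3.96, and without library 1 of P6, the highest of dura, it was 2.44. It did not pass without the libraries marked P6 (2.31, adjusted p = 0.0546). In P6 over P4, 4 of the 10 were higher and 1 lower, beside 16.1% and 17.2% of all genes, with a median of 0.39. Tcirg1, the pump subunit lost in osteopetrosis, was higher by 1.18 ± 0.09 and Plekhm1, which guides lysosome traffic, was lower at -1.05 ± 0.16 (SE, adjusted p = 5.91e-07 and 0.000182). Tcirg1 and Plekhm1 were chosen after their values were seen.

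Of 12 listed genes of RANK signalling 10 were tested, with 1 higher in dura, 4 lower and a median log2 fold change of -0.42, beside 11.1% of all genes higher, 15.1% lower and a median of -0.01. Fos, the AP-1 subunit needed for osteoclast formation, was higher at 0.84 ± 0.12 (SE, adjusted p = 8.01e-05), with every dural library above every diaphragm library. Relb and Nfkb2, partners in the noncanonical NF-kB pathway, and its kinase gene Map3k14 were lower in dura, at -1.35 ± 0.18, -1.16 ± 0.19 and -1.18 ± 0.27 (SE, highest adjusted p = 0.00417). In P6 over P4, 6 of 11 tested were higher and 1 lower, beside 16.1% and 17.2% of all genes. For P6 over P5 none of the 11 was called, beside 8.54% of all genes higher and 9.05% lower. Already in P5 over P4, 4 were higher and none lower, beside 3.3% and 4.34% of all genes. The gene lower in P6 than in P4, Tnfrsf11b, encodes osteoprotegerin, the soluble RANKL decoy, and was named after its values were seen. It had 0 to 0.336 CPM in P6 and 1.56 to 3.32 CPM in P4, at -3.58 ± 0.93 (SE, adjusted p = 0.00918), and P4 also had the highest fibroblast sums. The RANKL gene Tnfsf11 had 0 to 0.545 CPM in dura and 0 to 2.06 CPM in diaphragm, with the highest value in library 7.

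Of the 11 genes of ITAM costimulation, all tested, 1 was higher in dura and 2 lower, beside 11.1% and 15.1% of all genes. In P6 over P4, 6 were higher and none lower, beside 16.1% and 17.2% of all genes. The medians were 0.07 and 0.28, beside -0.01 and -0.004 for all genes. For P6 over P5, 2 of the 11 were higher and none lower, beside 8.54% and 9.05% of all genes. For P5 over P4, 3 were higher and none lower, beside 3.3% and 4.34% of all genes. Trem2, a receptor that signals through the adaptor of that pathway, had 194 to 300 CPM in dura and 85.8 to 172 CPM in diaphragm without overlap, at 0.92 ± 0.16 (SE, adjusted p = 0.000406). Pilrb1 was lower in dura at -1.58 ± 0.31 (SE, adjusted p = 0.00126), and the kinase gene Syk at -0.39 ± 0.14 (SE, adjusted p = 0.0455, passed in 9 of 29 alternatives). Sirpb1a, named after its values were seen, had 42.4, 37.9 and 43.3 CPM in P6, 3.98, 4.59 and 3.59 CPM in P5 and 0.607, 1.13 and 0.665 CPM in P4. It was higher in P6 than in P4 by 5.66 ± 0.25 (SE, adjusted p = 3.14e-09). Plcg2, the phospholipase downstream of the ITAM kinases and also named after its values were seen, was higher by 1.46 ± 0.10 (SE, adjusted p = 1.78e-07). Reads of Sirpb1a and Pilrb1 are uncertain, since both have near-identical relatives.

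Among 12 genes of adhesion and fusion 11 were tested, with none higher and 4 lower in dura, beside 11.1% and 15.1% of all genes. In P6 over P4, 6 were higher and 4 lower, beside 16.1% and 17.2% of all genes. Cd44, an adhesion receptor that takes part in macrophage fusion, had 186 to 224 CPM in P6, 51.2 to 57.4 in P5 and 16.1 to 23.3 in P4, against 399 to 1197 CPM in diaphragm. It was lower in dura at -3.22 ± 0.57 (SE, adjusted p = 0.000681) and higher in P6 than in P4 by 3.36 ± 0.14 (SE, adjusted p = 1.58e-09). Cd9, a tetraspanin, was likewise lower in dura at -1.48 ± 0.53 (SE, adjusted p = 0.0487, passed in 11 of 29 alternatives) and higher in P6 than in P4 by 2.30 ± 0.23 (SE, adjusted p = 1.46e-05). Cd47, a ligand in the fusion of myeloid cells, was lower in dura at -0.71 ± 0.11 (SE, adjusted p = 0.000139).

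Of 10 listed brakes on osteoclast formation, 9 were tested, with 1 higher and 2 lower in dura, beside 11.1% and 15.1% of all genes. In P6 over P4, 6 were higher and none lower, beside 16.1% and 17.2% of all genes. The median there was 0.51, beside -0.004 for all genes. For P6 over P5, 4 of the 9 were higher and 1 lower, beside 8.54% and 9.05% of all genes. For P5 over P4, 4 were higher and none lower, beside 3.3% and 4.34% of all genes. Nfkbia, the NF-kB inhibitor, was lower in dura at -1.12 ± 0.19 (SE, adjusted p = 0.000327) and higher in P6 than in P4 by 0.94 ± 0.07 (SE, adjusted p = 6.96e-07). Irf8, a repressor of osteoclast genes, was higher in dura by 0.48 ± 0.14 (SE, adjusted p = 0.0167), and its adjusted p was 0.0574 without diaphragm libraries 1 and 7.

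Other proteases and their inhibitors were mostly lower in P6 than in P4. Of 12 listed, 10 were tested, with none higher and 1 lower in dura, beside 11.1% and 15.1% of all genes. In P6 over P4, 2 were higher and 7 lower (median -0.80), beside 16.1% and 17.2% of all genes. For P6 over P5, 3 were higher and 4 lower, beside 8.54% and 9.05% of all genes. For P5 over P4, 2 were higher and 5 lower, beside 3.3% and 4.34% of all genes. Of the 12 fibroblast markers, 10 were also lower in P6 than in P4, and their part in the lower protease and inhibitor levels was not tested. Mmp12, macrophage elastase, had 40.1, 36.4 and 29.4 CPM in P6, 7.53, 7.999 and 3.87 CPM in P5 and 0, 0.438 and 0.332 CPM in P4, against 158 to 208 CPM in diaphragm libraries 3, 6 and 9, 58.9 and 64.7 CPM in libraries 2 and 8, and 13.2 and 3.09 CPM in libraries 1 and 7. It was higher in P6 than in P4 by 6.93 ± 0.47 (SE, adjusted p = 3.27e-07), a fold set by a few counts in P4, and lower in dura at -2.85 ± 1.02 (SE, adjusted p = 0.0493, passed in 9 of 29 alternatives). Ctss, cathepsin S of antigen-presenting cells and named after its values were seen, was the other gene higher in P6 than in P4, by 1.16 ± 0.09 (SE, adjusted p = 4.59e-07).

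The genes whose levels followed each member most closely from library to library were ranked by Pearson's r of log2(CPM + 1) over the 16 libraries, centred on the mean of each tissue, among 9829 genes. The libraries fall into sets of like libraries and share their depth and scaling, so r mainly ranks the order of the sets and is a description. For Acp5 the closest were Minpp1 (r = 0.94), Gngt2 (0.94) and Cd300lf (0.93), and for Ctsk they were Nupr1 (0.83), Rai14 (0.81) and Spsb1 (0.81). For Mmp9 they were Cfp (0.98), Sema6d (0.97) and Nfxl1 (0.97), and for Mmp13 Ptp4a2 (0.91), Ube2f (0.91) and Rp2 (0.90). For Ocstamp they were Cotl1 (0.96), Vars (0.96) and Map4k1 (0.95), and for Dcstamp Utp18 (0.91) and Cd226 (0.90). For Tnfrsf11a they were Hspa4 (0.86), Kif21b (0.85) and Pik3ap1 (0.84), and for Nfatc1 Itpripl2 (0.95), Pds5a (0.92) and Mcm2 (0.92). Within diaphragm alone the r of Nfatc1 with Pds5a was 0.29, where Nfatc1 itself varied little.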

How the data were processed

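RNA of sorted macrophages from 24 samples was read as single ends of 75 nucleotides from a library kit that keeps no strand, per the labels' protocols, which describe the digestion of dura and not of diaphragm. Tools named in the submitters' processing notes are featureCounts, STAR 2.4.0j and DESeq2 1.20.0, with the build GRCm38. The authors deposited a table of counts per gene that they call normalised. It was read as raw counts, since every value is whole and the column totals vary. Column names give the tissue, a number and, for dura, a mark, and no subset was assigned to a column. The 6 pairs of diaphragm columns of 1 number had chi-square ratios to degrees of freedom of 1.01 to 1.17, against at least 10.6 between other columns, and were summed. The columns of numbers 4 and 5, with 2115 and 1496 counts, were left out. Libraries were thus grouped by tissue and, within dura, by mark.

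Genes passing filterByExpr were tested with edgeR 4.0.16 (R 4.3.3) on the counts, with TMM factors and the quasi-likelihood test, two-sided, with Benjamini-Hochberg adjustment over all genes tested and a threshold of 0.05. Dura was fitted against diaphragm over 16 libraries, and the marks over the 9 dural libraries. CPM were computed from the deposited counts with TMM factors. Scripts were tested on simulated data. Alternatives were other scalings, filters, DESeq2 1.42.0, limma-voom (limma 3.58.1), the dural number as a block, random term or sum, and libraries left out. Applying them to pathway genes was decided after seeing the data. The members and lists were chosen with earlier results of these data known. Pathway genes named are those called between tissues, at most the 3 highest and 3 lowest of a list, unless marked as chosen after their values were seen. For likeness, the 3 closest genes with a proper symbol and a mean of at least 5 CPM are named. The listed genes Lilrb4a and Ly6a2 were not matched by symbol. Intervals and floors of 3 counts cover counting error only. Some results that these rules would name are not reported here.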

Additional observations from a re-analysis of the deposited data

Results flagged for a closer look

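In 4 of 20 sets of libraries (1 gene in 1 tissue), the highest library lay further from the next than Dixon's 95% value allows. For roughly normal values chance flags about 1 in 20, but that rate does not hold for sets that are mostly 0. A set with only 1 library above 0 is flagged whatever its level. All 4 concern the genes with almost no counts. Calcr in dura was highest in library 3 of P6, at 0.701 CPM, and Calcr in diaphragm was highest in library 6, at 1.22 CPM, the only diaphragm library above 0. Oscar in dura was highest in library 3 of P5, at 0.158 CPM, and Oscar in diaphragm in library 2, at 0.231 CPM, again the only one of its tissue above 0. These values stand for 9, 12, 2 and 5 counts.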

How the results depend on the processing

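Of 616 fits of a member under an alternative, 542 kept direction and side of the threshold, 33 lost the call, 28 gained it and 13 changed sign. The sign changes, on the log2 scale, were Mmp9 between tissues (-0.0719 without P5), Tnfrsf11a for P5 over P4 (0.0160 without a filter, 0.0203 with diaphragm in the fit, -0.0601 to 0.112 without 1 library) and Mmp13 for P6 over P5 (-0.00477 without a filter, -0.0921 to 0.107 without 1 library). Between tissues 3449 genes were called, but 1281 with dural libraries summed per number, 2114 without P5 and 2947 to 3559 without 1 library. The number of members higher, 1, became 2 with library totals, DESeq2, voom or without diaphragm libraries 1 and 7, 0 with dural sums (lowest adjusted p 0.0805 among them, for Tnfrsf11a), and 1 to 2 without 1 library. The number of members lower, 1, became 0 with upper-quartile factors, library totals, no filter, voom, the random term, dural sums, without P4 or without P5, 2 without P6, and 0 to 1 without 1 library. For P5 over P4, 1011 genes became 1587 without a filter, 3 with diaphragm in the fit and 545 (without library 3 of P5) to 1156 without 1 library. Members higher there, 1, became 3 without a filter, 0 with diaphragm in the fit and 1 to 2 without 1 library, and members lower, 1, became 2 without a filter or with DESeq2, 0 with diaphragm in the fit and 1 to 2 without 1 library. With diaphragm in the fit, the 2328 genes of P6 over P5 became 168 and the members 0 higher and 0 lower, and the 4412 genes of P6 over P4 became 1227 and the members 1 higher and 0 lower. Without 1 library these counts ran from 1528 (without library 3 of P5) to 2540 genes with 3 to 5 members higher for P6 over P5, and from 3727 to 4544 genes with 5 to 6 members higher for P6 over P4, with 1 lower in each. That fit shares 1 estimate of the spread with diaphragm libraries that fall into unlike sets.

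Dural libraries of the same number correlated weakly but always positively, at 0.0476 to 0.225 over 9 pairs. For 8 of 9 libraries the closest library of another mark had the same number. Libraries of the same number were thus alike, and the main fits, which took all dural libraries as separate, did not allow for this. Between tissues, summing the dural libraries per number gave 1281 genes called in place of 3449. With the dural number as a replicate block, P5 over P4 gave 1628 genes called and 2 members higher, Mmp13 and Mmp9, and Nfatc1 for P6 over P5 and Dcstamp for P6 over P4 passed the threshold too. The block changed no other call of a member. Library totals in place of TMM moved the median of all genes to 0.12 between tissues, to -0.13 for P5 over P4 and to -0.14 for P6 over P4. The share of calls that were higher, 42.3% between tissues, became 54.6% under upper-quartile factors and 61.2% under totals. It went to 23.3% in place of 43.2% for P5 over P4 and to 34.9% in place of 48.4% for P6 over P4 with library totals. Of 973 fits of a named pathway gene, 868 kept the call and 105 lost it. Calcr and Oscar, at 0 counts in most libraries, could not be compared at this depth.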
